A study of Mus musculus with 39 samples.

Results

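The genes described here are 8 members of the Fc receptor and ITAM adaptor system: the Fc gamma receptors Fcgr1, Fcgr2b, Fcgr3 and Fcgr4, the adaptors Fcer1g and Tyrobp, the kinase Syk and the receptor Trem2. They were taken by gene symbol, and all 8 were found in both count tables, among 24537 genes for kidney, liver and lung and 52508 gene symbols for skin. Bulk RNA from kidney, liver, lung and skin was counted at the 3′ end of transcripts in 39 libraries, all from male C57BL/6 Prf1-/- mice, which lack perforin, the pore-forming protein of cytotoxic lymphocytes. The young mice were 3 months old and untreated, and the old mice were 20 months old and had received from 18 months of age either vehicle or 25 mg/kg of ABT-737, an inhibitor of the BCL-2 family of anti-apoptotic proteins, on 2 consecutive days of each of 2 months. Each tissue had 3 vehicle libraries, 3 ABT-737 libraries and 4 young libraries, except skin with 3 young libraries. Some treatment labels name the compound ABT-738 or ABT-739, where the titles and methods have ABT-737. No wild-type mice were among these libraries, so every group carries the Prf1 deletion. The study describes its groups by numbers of mice, but the labels do not tie each library to a mouse of its own, so the p-values measure the spread between libraries, which may in part be technical.

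Skin libraries held 1493411 to 3842808 counts, kidney libraries 1431814 to 3513311, lung libraries 1046508 to 2600092 and liver libraries 223957 to 891116. Levels are given as CPM, counts scaled to a common library size, after TMM normalisation within each tissue. The markers of each labelled tissue were present in it. Summed over their lists, kidney tubule genes stood at 10700 to 13400 CPM in kidney, hepatocyte genes at 45500 to 75600 CPM in liver, alveolar and airway epithelial genes at 29200 to 61900 CPM in lung and keratinocyte and dermis genes at 12000 to 42400 CPM in skin. Prf1 itself was counted at most 11 times in a kidney or liver library and up to 169 times in a skin library, and since the 3′ tag may lie outside the deleted part these counts do not check the genotype. A few libraries stood apart for the genes described. Lung vehicle library 5 and skin vehicle library 5 held the highest summed level of the 8 genes in their tissue, 2880 CPM and 919 CPM, and liver vehicle library 3 was the shallowest library, so results that rest on them are given with and without them.

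Fc gamma receptors bind the constant part of IgG antibodies and let macrophages, monocytes, neutrophils, NK cells and mast cells respond to antibody-coated targets and immune complexes. The activating receptors Fcgr1, Fcgr3 and Fcgr4 have no signalling motif of their own in the mouse and depend on the FcR gamma chain, encoded by Fcer1g, whose cytoplasmic tail carries an immunoreceptor tyrosine-based activation motif (ITAM). Fcgr2b carries the opposing inhibitory motif (ITIM) and is also found on B cells and on the endothelium of liver sinusoids. Tyrobp encodes DAP12, a second ITAM adaptor, which serves among others TREM2, a receptor for lipids and apoptotic cells on macrophages. Once phosphorylated, the ITAMs of both adaptors dock the tyrosine kinase SYK, which starts phagocytosis and cytokine production. Kupffer cells of the liver, alveolar macrophages of the lung and the resident macrophages of kidney and skin all use this system.

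Of the 8 genes, Fcgr2b, Fcgr4, Fcgr3 and Fcer1g lie together on chromosome 1 in GRCm38, in an order that places the inhibitory receptor beside the activating ones. In the transcript models of the kidney, liver and lung table, Fcgr2b spans chr1:170960559-170976071 on the minus strand, Fcgr4 chr1:171018926-171029761 on the plus strand, Fcgr3 chr1:171051169-171059403 on the minus strand and Fcer1g chr1:171229572-171234349 on the minus strand. Fcgr1 lies on chromosome 3, Tyrobp on chromosome 7, Syk on chromosome 13 and Trem2 on chromosome 17. The last 500 annotated bases, where 3′ tags fall, were taken from the 8 transcripts of the skin table. They shared none of their 451 possible stretches of 50 bases with another gene, so reads of the related receptors could be told apart by sequence there. For Fcgr2b and Trem2 these transcripts end elsewhere than the models of kidney, liver and lung, so the check does not cover those 2 genes in those tissues. RefSeq promoters of 300 bases (GRCm38.p6, 250 bases before to 50 bases after the transcript start) were matched for 7 of the 8 genes, all but Tyrobp. They were searched on both strands for GAGGAA, the core of the purine-rich (PU) box bound by the myeloid factor PU.1, which 28.3% of all 32851 promoters hold, and for TTCNNNGAA, the interferon-gamma-activated (GAS) element, which 8.30% hold. The promoters of the 3 activating receptors and of the inhibitory one are shown because the ratio of their counts is described further on. Whether promoter sequence bears on that ratio was not tested. Capitals mark the matches, which for the PU box here read TTCCTC, its reverse strand, and each promoter is written from 5′ to 3′ on the strand of its gene.
Fcgr1, chr3:96293920-96294219, minus strand: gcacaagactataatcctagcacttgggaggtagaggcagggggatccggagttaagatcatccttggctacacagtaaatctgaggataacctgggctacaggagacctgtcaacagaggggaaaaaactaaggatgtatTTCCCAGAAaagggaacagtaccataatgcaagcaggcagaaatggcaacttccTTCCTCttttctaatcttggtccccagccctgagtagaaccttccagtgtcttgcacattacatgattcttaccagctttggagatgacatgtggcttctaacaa
Fcgr3, chr1:171059354-171059653, minus strand: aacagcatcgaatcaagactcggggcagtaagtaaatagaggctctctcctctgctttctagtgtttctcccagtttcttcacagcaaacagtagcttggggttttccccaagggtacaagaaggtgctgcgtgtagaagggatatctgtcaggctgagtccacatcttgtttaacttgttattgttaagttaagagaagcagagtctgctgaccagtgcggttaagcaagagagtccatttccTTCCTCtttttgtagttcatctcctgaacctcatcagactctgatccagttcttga
Fcgr4, chr1:171018676-171018975, plus strand: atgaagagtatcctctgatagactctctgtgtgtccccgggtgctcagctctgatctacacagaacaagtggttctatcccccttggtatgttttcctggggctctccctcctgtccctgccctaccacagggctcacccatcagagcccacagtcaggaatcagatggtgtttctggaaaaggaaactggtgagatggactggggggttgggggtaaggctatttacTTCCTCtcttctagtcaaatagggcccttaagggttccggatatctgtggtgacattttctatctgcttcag
Fcgr2b, chr1:170976022-170976321, minus strand: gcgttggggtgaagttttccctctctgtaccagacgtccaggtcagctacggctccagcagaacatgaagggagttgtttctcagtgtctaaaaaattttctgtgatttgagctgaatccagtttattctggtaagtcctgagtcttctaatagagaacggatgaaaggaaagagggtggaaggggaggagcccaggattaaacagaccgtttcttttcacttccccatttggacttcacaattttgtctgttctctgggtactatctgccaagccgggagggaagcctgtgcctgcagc
In this window the Fcgr1, Fcgr3 and Fcgr4 promoters each held 1 PU box, and that of Fcgr1 also held 1 GAS element. The Fcgr2b promoter held neither set of letters, nor did that of Fcer1g, while Trem2 and the second of the 2 Syk promoters each held 1 PU box. A match describes the sequence and does not show that a factor binds there.

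Age was addressed first, by comparing old vehicle mice with young mice. In kidney 7 of the 8 genes were higher in old vehicle mice at an adjusted p below 0.05 (edgeR quasi-likelihood test with Benjamini-Hochberg adjustment over all genes tested), where 7.75% of the 11123 genes tested were called higher. The exception was Fcgr2b, the inhibitory receptor. In liver all 5 genes that held enough counts to be tested (Fcgr1, Fcgr3, Fcer1g, Tyrobp and Syk) were higher, against 11.7% of 5583 genes, and Fcgr2b, Fcgr4 and Trem2 were not tested. In lung 7 of the 8 were higher, against 8.15% of 11949 genes, with Trem2 short of the threshold, and in skin 8 of the 8, against 5.84% of 14224 symbols. The median log2 fold change of the genes tested was 2.95 in skin, 2.59 in liver, 2.33 in kidney and 2.02 in lung, and that of all genes tested lay between 0.00625 and 0.0545. In bulk tissue, more cells that express a gene and more RNA per cell cannot be told apart. Without vehicle library 5, 4 of the 8 were called in lung (Fcgr1, Fcgr3, Fcgr4 and Tyrobp) and 4 in skin (Fcgr1, Fcgr2b, Fcgr3 and Fcgr4). With the replicate number as a block, 2 of the 8 were called higher in lung, Fcgr1 and Fcgr4, against 2.03% of genes. Fcgr2b, Fcgr3, Fcer1g, Tyrobp and Syk then had adjusted p-values from 0.05 to 0.137. Only young libraries are numbered 1 and 2, so this fit compares old mice with young libraries 3 and 4 alone. In skin 0 of the 8 were called without young library 1 or young library 2, when adjusted p-values ran from 0.0612 to 0.115, though all 8 fitted changes stayed above 0. For fits with 1 library left out, here and below, the share of all genes called is not given. The counts given here therefore do not tell fewer calls over all genes apart from fewer among the 8.

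**Figure D1:**
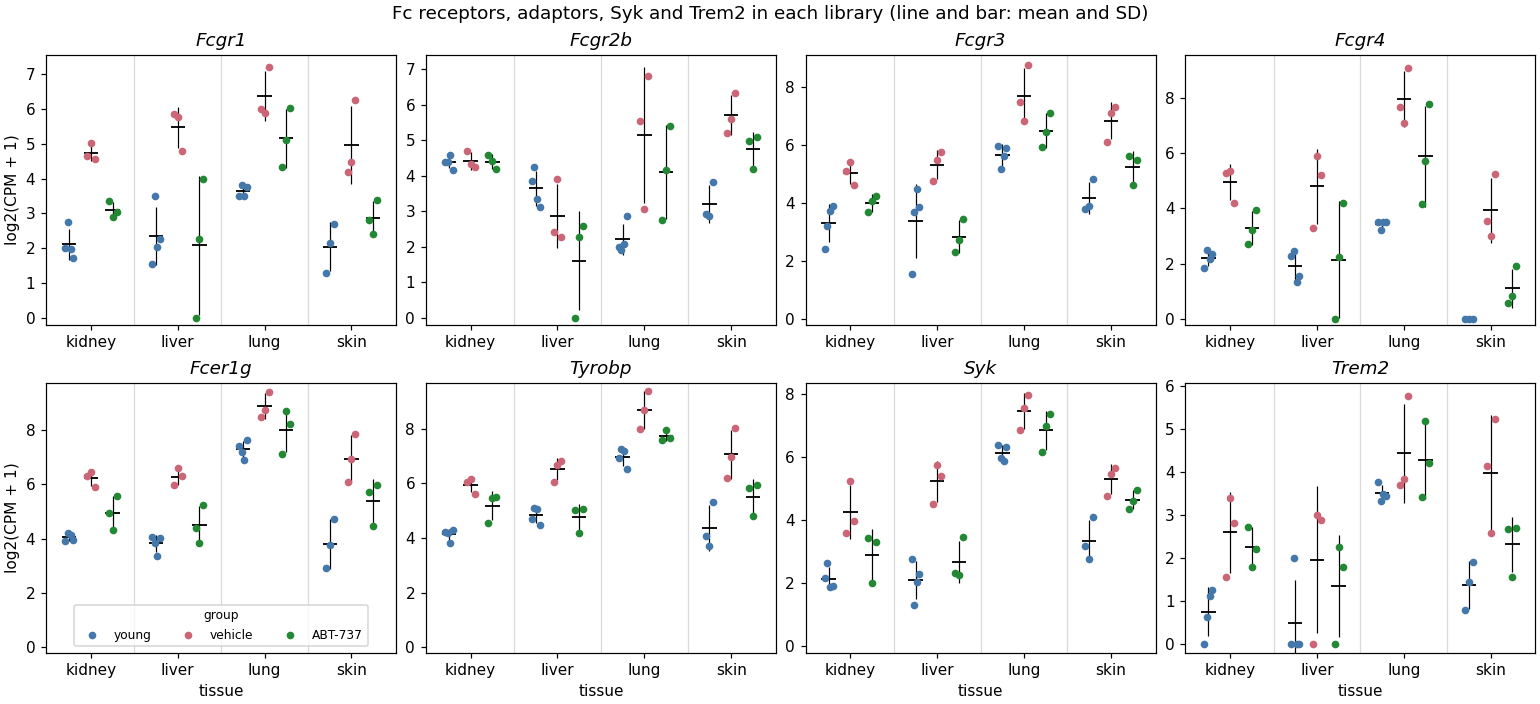
Level of each gene in every library, on a log2(CPM + 1) axis that differs between panels, for young, old vehicle and old ABT-737 mice in 4 tissues. Points are libraries, horizontal lines means and vertical bars SDs. Kidney Fcgr2b libraries of all 3 groups sit between 17.1 and 25.1 CPM and overlap, while vehicle libraries are above the young ones for the other genes in kidney.

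Among the activating receptors, Fcgr1, the high-affinity receptor for monomeric IgG, stood in kidney at 3.00, 5.79, 2.93 and 2.31 CPM in the 4 young libraries. In the 3 vehicle libraries it stood at 24.3, 31.5 and 22.5 CPM, higher by 2.80 ± 0.29 on the log2 scale (± SE here and below, adjusted p = 1.1e-05). The groups did not overlap, and Fcgr1 was also higher with age in liver (3.06 ± 0.55), lung (2.95 ± 0.42) and skin (3.39 ± 0.69). Fcgr4, which binds IgG2a/c and IgG2b, was the gene with the largest fitted rise in lung and in kidney among the 8. In lung it went from 10.3, 8.34, 10.3 and 10.4 CPM in young mice to 204, 136 and 544 CPM in vehicle mice, a log2 fold change of 4.89 ± 0.71 (adjusted p = 0.00259). In skin Fcgr4 had no count in any of the 3 young libraries and 24, 20 and 134 counts in the vehicle libraries. Taking 3 counts over the young group as its limit, the pooled level of Fcgr4 was at least 36.3-fold higher in old vehicle skin (adjusted p = 0.0218, edgeR). Without vehicle library 5, which held most of the counts, it was at least 15.4-fold higher (adjusted p = 0.0471). Both limits allow for counting error in the young group and not for the spread between vehicle libraries. Fcgr3, the low-affinity activating receptor shared by macrophages, NK cells and mast cells, rose on the log2 scale by 2.72 ± 0.43 in skin, 2.24 ± 0.42 in lung, 1.77 ± 0.42 in liver and 1.75 ± 0.29 in kidney. In liver, where Fcgr4 was too low to be tested, it had 7 counts over the 4 young libraries and 80 over the 3 vehicle libraries, a ratio of depth-scaled levels of 14.5 with an exact counting interval of 6.71 to 37.2 (95%).

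The adaptors and SYK rose with age in all 4 tissues. Fcer1g stood in liver at 15.5, 13.4, 9.22 and 15.4 CPM in young mice and at 61.1, 96.0 and 77.1 CPM in vehicle mice. Its log2 fold change was 2.60 ± 0.32 in liver (adjusted p = 6.7e-05), 2.23 ± 0.24 in kidney, 1.63 ± 0.36 in lung and 3.17 ± 0.62 in skin. No young library overlapped a vehicle library for Fcer1g, Tyrobp or Syk in any tissue, where 19.5% of all genes tested in skin, 16% in liver, 15.1% in lung and 14.8% in kidney were higher without overlap. Tyrobp rose by 2.73 ± 0.58 in skin, 1.88 ± 0.23 in kidney, 1.80 ± 0.32 in lung and 1.77 ± 0.27 in liver. In the skin table the counted Tyrobp model runs 2000 bases past the annotated end of the gene, as 82.5% of its models do, and overlaps 1866 bases of Hcst, which encodes the adaptor DAP10 on the opposite strand. Whether strand was used in counting was not stated, so reads of the 2 genes cannot be told apart there, and Hcst was called higher in old skin too (2.58 ± 0.49, adjusted p = 0.0171). In the other 3 tissues the Tyrobp model overlapped no other gene. Syk was the adaptor-side gene with the largest change in liver, from 5.81, 1.49, 3.07 and 3.84 CPM in young mice to 21.8, 52.7 and 41.1 CPM in vehicle mice, a log2 fold change of 3.53 ± 0.47 (adjusted p = 8.5e-05), and with the smallest in lung (1.38 ± 0.32, adjusted p = 0.0135).

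Trem2 was counted at low levels in kidney and liver and in young and ABT-737 skin. Its young kidney libraries held 0, 2, 4 and 3 counts and its vehicle kidney libraries 5, 14 and 13, a log2 fold change of 2.72 ± 0.65 (adjusted p = 0.00958). In skin it went from 0.724, 1.73 and 2.73 CPM to 16.7, 4.98 and 36.7 CPM (3.39 ± 0.81, adjusted p = 0.0311). In lung the young libraries stood at 12.8, 9.04, 10.3 and 9.88 CPM and the vehicle libraries at 12.1, 13.3 and 53.5 CPM, so the groups overlapped and the difference did not pass (1.34 ± 0.52, adjusted p = 0.1). In liver 2 counts over the young libraries and 11 over the vehicle libraries gave a ratio of 6.97 with a counting interval of 1.52 to 64.7. That interval leaves out the spread between libraries, and the groups overlapped. In an edgeR fit with no filter beyond 1 count the difference did not pass (2.4 ± 1.12, adjusted p = 0.0998).

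The inhibitory receptor Fcgr2b was called higher with age in lung and skin but not in kidney, and whether its change differed between tissues was not tested. In kidney it stood at 20.2, 20.1, 22.8 and 17.1 CPM in young mice and at 25.1, 19.2 and 17.8 CPM in vehicle mice, a log2 difference of 0.05 ± 0.20 (adjusted p = 0.895). The groups overlapped, and the sign turned when vehicle library 3 or young library 4 was left out. In lung Fcgr2b rose, from 2.94, 2.78, 3.26 and 6.24 CPM to 45.6, 7.29 and 112 CPM (3.82 ± 0.78, adjusted p = 0.00704), and in skin from 6.51, 6.33 and 13.2 CPM to 36.0, 47.7 and 79.5 CPM (2.61 ± 0.43, adjusted p = 0.0130). Without vehicle library 5 the lung change of Fcgr2b was 2.72 and no longer passed (adjusted p = 0.0567), nor did it pass with the replicate block (2.34, adjusted p = 0.137). In liver it had 29 counts over the 4 young libraries and 16 over the 3 vehicle libraries, a ratio of 0.699 with a counting interval of 0.355 to 1.33, so no difference was detectable at this depth. The Fcgr2b model overlaps the antisense gene Gm38204, and reads of the 2 cannot be told apart without strand. The Fcgr4 model likewise contains Gm26110 on its own strand.

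**Figure D2:**
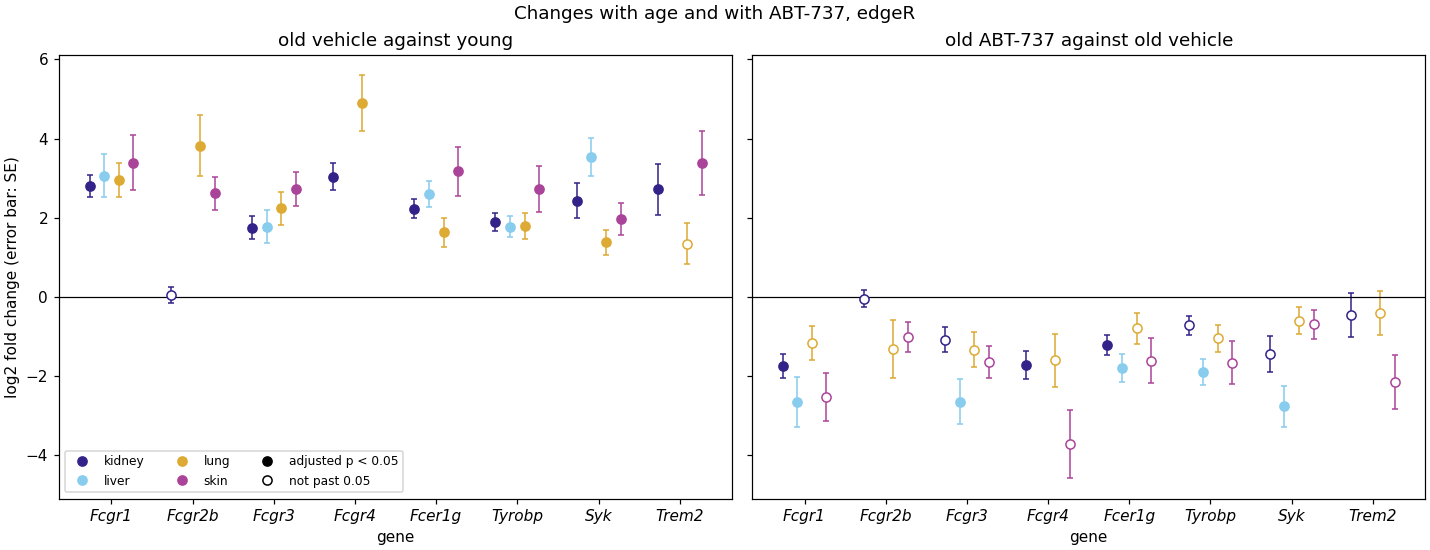
Log2 fold change of each gene in the fit of each tissue, for old vehicle against young mice on the left and for ABT-737 against vehicle mice on the right, with standard errors as bars. Filled points have an adjusted p below 0.05. Genes not tested in liver are not drawn, nor is skin Fcgr4 against young mice, which has only a bound. On the left all points but kidney Fcgr2b lie above 1, and on the right filled points are found in kidney and liver.

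The ratio of the 3 activating receptors to Fcgr2b was taken within each library, as summed counts with 0.5 added to each side, so that it does not depend on how the libraries were scaled. In young kidney it was 0.495, 0.932, 0.822 and 1.19, and in vehicle kidney 3.79, 5.84 and 3.52, a 5.22-fold higher geometric mean (exact permutation test, two-sided p = 0.0286, the smallest this design allows). In liver it went from between 0.600 and 2.69 to between 10.7 and 25.9, a 10.3-fold higher mean (exact permutation p = 0.0286), though each liver library held only 0 to 12 Fcgr2b counts. In lung, where Fcgr2b rose as well, the ratio ranged from 12.5 to 26.1 in young and from 9.70 to 41.1 in vehicle mice and the groups overlapped (exact permutation p = 0.743). In skin it went from between 2.16 and 2.65 to between 2.66 and 3.47, which reaches the smallest p that 3 against 3 libraries allow (exact permutation p = 0.1). Over the 16 ratio tests made here, none passed adjustment, with a lowest Benjamini-Hochberg adjusted p of 0.200. With so few libraries none could have passed, even if every test had reached its smallest possible exact permutation p, 0.0286 or 0.1. The adjusted values therefore do not decide whether the ratios differed.

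**Figure D3:**
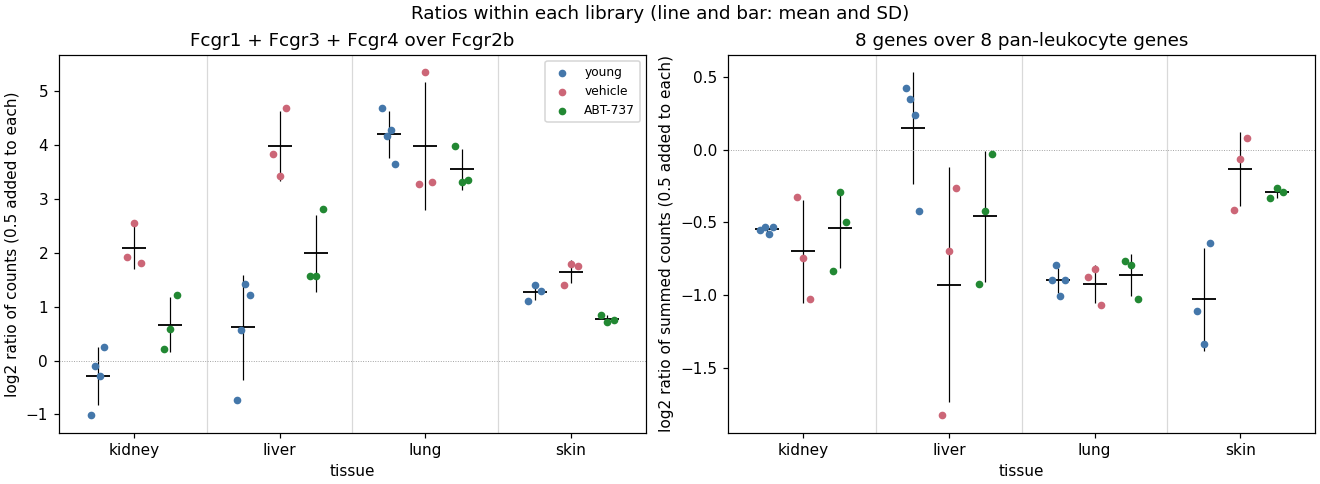
Within-library log2 ratios of counts by tissue and group, with lines for means and bars for SDs: Fcgr1 + Fcgr3 + Fcgr4 over Fcgr2b on the left, and the 8 genes over 8 pan-leukocyte genes on the right. On the left the kidney, liver and skin vehicle libraries lie above both other groups and the lung groups overlap, and on the right the groups overlap in every tissue but skin, where the vehicle libraries lie above the young ones.

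ABT-737 was then compared with vehicle in old mice, which answers whether the drug changed these genes. In kidney 3 of the 8 genes were lower in ABT-737 mice, Fcgr1, Fcgr4 and Fcer1g, against 1.21% of genes called lower. In liver all 5 genes tested were lower, against 2.85%. In lung 0 of the 8 were called, against 0% of all genes, and in skin 0 of the 8, against 0%. In lung 4 of the 8 and in skin 7 of the 8 had an unadjusted p below 0.05, all lower, where 6.54% of all genes in lung and 4.57% in skin were lower at such a p. DESeq2 called 0 of the 8 lower in lung, against 0.935% of genes, and 3 in skin, against 0.38% (Fcgr1, Fcgr3 and Fcgr4, adjusted p between 0.0105 and 0.0267). All fitted log2 fold changes of the 8 genes were below 0 in each tissue where they were tested, with medians of -2.65 in liver, -1.65 in skin, -1.16 in kidney and -1.11 in lung, beside medians of all genes between -0.0321 and 0.0426. This comparison shares its vehicle libraries with the comparison by age, so the opposite signs of the 2 are not independent of each other.

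In kidney, Fcgr1 stood at 9.25, 6.43 and 7.27 CPM in ABT-737 mice, below all 3 vehicle libraries, a log2 fold change of -1.75 ± 0.30 (adjusted p = 0.0057). Fcgr4 stood at 5.65, 8.41 and 14.5 CPM in ABT-737 mice against 37.7, 40.4 and 17.4 CPM in vehicle mice (-1.72 ± 0.35, adjusted p = 0.0193). Fcer1g stood at 29.8, 18.8 and 46.2 CPM against 78.5, 85.5 and 58.2 CPM (-1.23 ± 0.25, adjusted p = 0.0193). The groups did not overlap for these 3 genes, nor for Fcgr3, Tyrobp and Syk, whose differences of -1.09, -0.72 and -1.45 had adjusted p-values between 0.110 and 0.148, and 8.47% of all genes tested in kidney were lower without overlap. Kidney Fcgr2b was at 23.1, 20.3 and 17.1 CPM in ABT-737 mice, a log2 difference of -0.05 ± 0.22 from vehicle (adjusted p = 0.942), and Trem2 differed by -0.47 ± 0.56 (adjusted p = 0.748). The calls of Fcgr4 and Fcer1g were lost when ABT-737 library 3, ABT-737 library 4 or vehicle library 4 was left out, which left 1 of the 8 called, Fcgr1, and without vehicle library 3 there were 4.

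In liver, Syk stood at 3.96, 3.79 and 9.90 CPM in ABT-737 mice, below all 3 vehicle libraries (-2.77 ± 0.52, adjusted p = 0.00522). Fcgr1 had 0, 2 and 6 counts in the ABT-737 libraries and 13, 46 and 21 in the vehicle libraries (-2.66 ± 0.63, adjusted p = 0.0239), and Fcgr3 had 1, 3 and 4 against 6, 37 and 41 (-2.65 ± 0.58, adjusted p = 0.0131). Tyrobp fell from 65.5, 102 and 112 CPM in vehicle mice to 31.7, 17.1 and 32.2 CPM in ABT-737 mice (-1.90 ± 0.33, adjusted p = 0.00355), and Fcer1g fell by 1.80 ± 0.35 on the log2 scale (adjusted p = 0.00743). For each of the 5 genes the ABT-737 libraries lay below the vehicle libraries, as they did for 9.67% of all genes tested in liver. Fcgr4, not tested in the fit, had 9 counts over the ABT-737 libraries and 80 over the vehicle libraries, a ratio of 0.177 with a counting interval of 0.0782 to 0.353, while 1 ABT-737 library and the shallow vehicle library 3 overlapped. All 5 calls were lost without ABT-737 library 4, when adjusted p-values ran up to 0.182, 3 of the 8 were called without ABT-737 library 3, and 6 of the 8 without the shallow vehicle library 3. With no filter beyond 1 count, Fcgr4 could be fitted in liver and was called lower (-2.28 ± 0.53, adjusted p = 0.00116).

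In lung the 3 vehicle libraries spread widely and overlapped the ABT-737 libraries for all genes but Tyrobp, which stood at 252, 407 and 669 CPM in vehicle mice and at 192, 249 and 203 CPM in ABT-737 mice (-1.05 ± 0.35, adjusted p = 0.174). Of all lung genes tested, 6.63% were lower without overlap. Fcgr4 stood at 16.8, 51.6 and 219 CPM in ABT-737 mice, and its difference of -1.60 ± 0.67 had an adjusted p of 0.260. The deviations of vehicle and ABT-737 lung libraries of one number had correlations of 0.176, 0.296 and 0.427. Those of different numbers ranged from -0.571 to 0.302 and so overlapped them, and the numbers are not a known pairing. In the fit with the replicate number as a block, 3 of the 8 lung genes were called lower, against 3.5% of all genes tested, where the fit without the block called none: Fcgr1 (-1.22, adjusted p = 0.0114), Fcgr3 (-1.22, adjusted p = 0.0235) and Fcgr4 (-1.997, adjusted p = 0.00631). Without ABT-737 library 5, Fcgr4 alone was called (-3.17, adjusted p = 0.0322), and without vehicle library 5 the fitted difference of Fcgr4 shrank to -0.80 and that of Trem2 turned to 0.66.

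In skin, Fcgr4 had 2, 2 and 9 counts in ABT-737 mice against 24, 20 and 134 in vehicle mice (-3.73 ± 0.87, adjusted p = 0.476). Fcgr1 stood at 5.97, 4.31 and 9.45 CPM against 17.1, 21.4 and 75.9 CPM (-2.53 ± 0.61, adjusted p = 0.476). The ABT-737 libraries lay below the vehicle libraries for 6 of the 8 genes, against 5.81% of all symbols tested, and overlapped them for Syk and Trem2. Skin vehicle library 5 was the highest for each of the 8 genes, and without it the fitted difference of Fcgr1 went to -1.54 and that of Tyrobp from -1.67 to -1.04.

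The activating to inhibitory ratio was lower in ABT-737 than in vehicle libraries without overlap in kidney, where it was 1.15, 1.51 and 2.31 in ABT-737 mice, a 2.69-fold lower mean. It was also lower without overlap in liver, between 3.00 and 7.00, and in skin, at 1.81, 1.65 and 1.69, a 1.84-fold lower mean. In each of these tissues the exact permutation p was 0.1, the smallest that 3 against 3 libraries allow. In lung the ratio ranged from 9.97 to 15.7 in ABT-737 mice and overlapped that of vehicle mice (exact permutation p = 0.900).

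Whether the change with ABT-737 differed between tissues was tested in 1 fit of the 30 kidney, liver and lung libraries. None of the 8 genes differed between kidney and liver, against 0.0839% of 13107 genes called, between kidney and lung, against 0%, or between liver and lung, against 0.29%. At an unadjusted p below 0.05, 1 of the 8 differed between kidney and liver (Tyrobp, adjusted p = 0.534, edgeR), 0 between kidney and lung and 1 between liver and lung (Syk, -2.22 ± 0.75, adjusted p = 0.185). The share of all genes at such a p is not given for these tests, so no difference between tissues is read from these counts. Skin, counted on another table, was not part of that fit, so whether its change differed from that of the other tissues was not tested.

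Against young mice, few of the 8 genes were called by edgeR in ABT-737 mice. In kidney 1 of the 8, Tyrobp, was called higher (1.16 ± 0.24, adjusted p = 0.0156), against 1.38% of genes, with young libraries between 13.2 and 18.5 CPM and ABT-737 libraries at 22.6, 43.6 and 44.7 CPM. In lung 2 of the 8 were called, Fcgr1 (1.79 ± 0.43, adjusted p = 0.0450) and Fcgr4 (3.29 ± 0.69, adjusted p = 0.0339), against 2.15%. The lung calls were lost when ABT-737 library 5 or any 1 of the 4 young libraries was left out, 1 remained without vehicle library 3 and 3 were made without vehicle library 5. With the replicate block, which against young mice rests on young libraries 3 and 4, 0 of the 8 were called in lung, against 0.0167% of genes. The kidney call of Tyrobp was lost without ABT-737 library 4, ABT-737 library 5 or young library 3 and with the replicate block (adjusted p between 0.0557 and 0.206). At an unadjusted p below 0.05, 5 of the 8 were higher in kidney, against 9.73% of genes, and 7 of the 8 in lung, against 14.4%. DESeq2 called 2 of the 8 higher in kidney, against 2.09%, and 3 of the 8 in lung, against 4.83%. In liver 0 of the 5 tested were called, against 3.13%, with 0 by DESeq2, against 2.62%, and 0 at an unadjusted p below 0.05, against 10.9%. Fcgr2b, not tested in liver, had 4 counts over the ABT-737 libraries and 29 over the young libraries, a ratio of 0.275 with a counting interval of 0.0703 to 0.784, and these groups did not overlap. With no filter beyond 1 count its difference did not pass (-1.80 ± 0.77, adjusted p = 0.169). In skin 0 of the 8 were called, against 2% of symbols, with 2 by DESeq2 (Fcgr2b and Syk), against 6.75%, and 4 at an unadjusted p below 0.05, against 16.8%. A p that misses the threshold does not show that a level was back at that of young mice, and in skin Fcgr2b stood at 30.4, 17.2 and 33.2 CPM in ABT-737 mice, above each young library (1.60 ± 0.42, adjusted p = 0.0573).

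The genes were also set against the general leukocyte signal. The counts of the 8 genes summed were divided by those of 8 pan-leukocyte genes, such as Ptprc (CD45) and Cd52, in each library. In kidney this ratio ranged from 0.669 to 0.693 in young, 0.489 to 0.799 in vehicle and 0.562 to 0.817 in ABT-737 mice, and in lung from 0.498 to 0.576, 0.476 to 0.566 and 0.490 to 0.587, so the groups overlapped. ABT-737 and vehicle mice overlapped in every tissue (exact permutation p between 0.400 and 0.600). With age the ratio was higher without overlap in skin, from 0.463, 0.394 and 0.641 to 0.749, 0.957 and 1.06 (exact permutation p = 0.1), and ranged from 0.747 to 1.34 in young and 0.282 to 0.835 in vehicle liver. The pan-leukocyte genes moved with the 8: all 6 tested in lung, 6 in kidney and 3 in liver, and 5 of 6 in skin, were called higher with age, and 4 of 6 in kidney and 3 of 3 in liver lower with ABT-737. Summed, they stood in kidney at 95.6 to 115 CPM in young, 348 to 559 in vehicle and 145 to 226 in ABT-737 mice.

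Markers of the cells that carry these receptors moved in the same libraries. Of 14 macrophage and monocyte genes, 12 of 14 tested in lung, 12 of 13 in skin, 11 of 12 in kidney and 8 of 9 in liver were called higher with age, while the remaining liver gene was called lower. With ABT-737, 8 in liver and 6 in kidney were called lower. In lung and skin edgeR called 0, with 2 and 12 at an unadjusted p below 0.05. The Kupffer cell receptor Clec4f went in liver from 149 CPM in young to 471 CPM in vehicle and 121 CPM in ABT-737 mice as group means (-1.94 ± 0.26 with ABT-737, adjusted p = 0.00058), and Cd5l with it (-2.43 ± 0.44, adjusted p = 0.00483). The complement genes C1qa, C1qb and C1qc, made by resident macrophages, were called lower in kidney by 1.43 to 1.51 on the log2 scale. Other cells that use ITAM adaptors moved too. T cell genes were called higher with age for 6 of 6 tested in kidney, 9 of 9 in lung and 4 of 4 in skin, and lower with ABT-737 for 3 of 6 in kidney. NK cell genes, summed over 8, stood in liver at 1.92 to 4.61 CPM in young, 48.0 to 66.8 in vehicle and 5.69 to 15.9 in ABT-737 mice. Among neutrophil genes 2 of the 5 tested in lung were called higher with age and none could be tested in the other 3 tissues. Their summed level in skin was 0.724 to 1.36 CPM in young mice, 3.08, 12.8 and 350 CPM in vehicle mice, the last in library 5, and 3.37 to 7.44 CPM in ABT-737 mice. In liver it was 0 to 5.96 CPM in young, 13.1 to 97.2 in vehicle and 0 to 3.96 in ABT-737 mice. Mast cell genes in skin stood at 12.3 to 71.9 CPM in young, 91.4 to 309 in vehicle and 60.7 to 133 in ABT-737 mice, with 2 of 4 tested called higher with age and 0 lower with ABT-737, where 2 had an unadjusted p below 0.05. B cell genes were called higher with age for 4 of 6 tested in lung, 1 of 1 in kidney and 0 of 1 in skin, and stood in lung at 93.9 to 152 CPM in young, 267 to 454 in vehicle and 88.2 to 470 in ABT-737 mice. The part of each cell type in the levels of the 8 genes was not tested. Erythrocyte genes were called higher with age for 6 of 6 in kidney, 5 of 5 in skin, 5 of 6 in liver and 3 of 6 in lung and for none with ABT-737, where 4 of 6 in liver and 5 of 5 in skin had an unadjusted p below 0.05. Their summed level in liver was 491 to 1520 CPM in young, 3600 to 4290 in vehicle and 1490 to 3360 in ABT-737 mice.

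The rest of the pathway was followed in lists. Of the list of ligand chains, the kidney, liver and lung table holds Jchain alone, which joins IgA and IgM into polymers and is no IgG chain. In lung Jchain rose from 0.695 to 1.09 CPM in young to 23.2 to 44.3 CPM in vehicle mice (4.88 ± 1.16, adjusted p = 0.0137), and stood at 2.11 to 178 CPM in ABT-737 mice (6.01 ± 1.12 against young, adjusted p = 0.0249). IgG chains were read in skin: Igkc, the kappa light chain, rose from a mean of 3.15 CPM in young to 415 CPM in vehicle skin (6.96 ± 1.01, adjusted p = 0.0112) and Ighg2c, the IgG2c heavy chain, from 0.241 to 42.9 CPM (7.50 ± 2.17, adjusted p = 0.0479). Both belong to families of similar segments, so their counts are uncertain. With ABT-737 none of the 4 ligand genes tested in skin was called by edgeR, none had an unadjusted p below 0.05, and the summed level was 123 to 1210 CPM in vehicle and 175 to 296 CPM in ABT-737 mice. Of 10 other Fc receptors, 1 of 2 tested in kidney was called, Pigr, which carries polymeric IgA across epithelium. It rose with age (1.99 ± 0.26, adjusted p = 0.000113) and fell by 1.21 ± 0.28 on the log2 scale with ABT-737 (adjusted p = 0.0471). In lung 4 of 7 were called higher with age, among them Fcrla (2.21 ± 0.51) and Fcrl1 (1.90 ± 0.51), genes of B cells.

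Of 19 other receptors that pair with the FcR gamma chain or DAP12, few were counted well enough to be tested. The integrin chains Itgam and Itgb2 were the 2 tested in kidney, both called higher with age (3.00 ± 0.40 and 2.82 ± 0.23), and Itgb2 was called lower with ABT-737 in kidney (-1.66 ± 0.23, adjusted p = 0.00138) and in liver (-2.05 ± 0.41, adjusted p = 0.00863). In lung 4 of 8 were called higher with age, among them Clec4d (3.83 ± 0.68), a C-type lectin that signals through the FcR gamma chain, and Klrk1 (3.08 ± 0.62), which encodes the NK receptor NKG2D. Of 7 other adaptors with an ITAM or the related YINM motif, 4 of 4 in kidney, 7 of 7 in lung and 2 of 3 in skin were called higher with age. In kidney Cd3d, a chain of the T cell receptor complex (-3.01 ± 0.54, adjusted p = 0.00706), and Hcst (-1.89 ± 0.36, adjusted p = 0.0119) were called lower with ABT-737.

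Downstream of the ITAM, 15 of 22 genes tested in lung, 10 of 22 in skin, 10 of 16 in kidney and 4 of 5 in liver were called higher with age, and 1 in kidney was called lower. Examples were Vav1 (2.94 ± 0.35) in kidney, Rac2 (3.11 ± 0.33) in liver and Lcp2 (3.48 ± 0.69) in lung. With ABT-737, 3 of 16 in kidney and 2 of 5 in liver were called lower, among them Rac2, a small GTPase of the phagocyte oxidase, in both tissues (-1.495 ± 0.32 and -3.11 ± 0.40). The opposing side moved in the same direction. Of 16 ITIM receptors and inhibitory phosphatases, 12 of 16 tested in lung, 9 of 11 in kidney, 4 of 9 in skin and 4 of 5 in liver were called higher with age. Pirb, which binds MHC class I and carries ITIMs, was called lower with ABT-737 in kidney (-1.65 ± 0.21, adjusted p = 0.000663) and in liver (-2.73 ± 0.47, adjusted p = 0.00346), as was Sirpa, the receptor for CD47, in liver (-3.30 ± 0.35, adjusted p = 0.00014). Fcgr2b also carries an ITIM, and its kidney difference given above did not pass in either comparison.

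TREM2 ligands and the genes of lipid-associated macrophages were more mixed. In kidney 5 of 12 were called higher and 1 lower with age: Cst7 (4.24 ± 0.55) and Apoe (1.75 ± 0.26), which encodes a TREM2 ligand, rose, and Lpl, lipoprotein lipase, fell by 1.33 ± 0.22 on the log2 scale. With ABT-737, Cst7 was called lower (-3.76 ± 0.62, adjusted p = 0.00365) and Lpl higher (0.98 ± 0.23, adjusted p = 0.0468) in kidney. In lung 6 of 14 and in skin 6 of 13 were called higher with age, in both tissues Gpnmb (2.67 ± 0.40 and 3.50 ± 0.46) and Spp1 (2.35 ± 0.35 and 3.40 ± 0.86). In liver Lgals3, which encodes galectin-3, a TREM2 ligand, was called higher with age (2.56 ± 0.37) and lower with ABT-737 (-2.70 ± 0.46, adjusted p = 0.0032).

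The order of the tissues was read from CPM scaled over the 30 kidney, liver and lung libraries together. For Tyrobp the young lung libraries stood at 73.4 to 122 CPM, those of liver at 28.4 to 45.4 CPM and those of kidney at 11.8 to 16.3 CPM, and the vehicle libraries at 200 to 540, 83.0 to 162 and 43.3 to 60.3 CPM, so lung was above liver and liver above kidney without overlap at both ages. Fcer1g, Syk and Trem2 were highest in young lung, and young kidney and liver overlapped. Fcgr2b was lowest in lung among the young libraries, with 2.22 to 5.04 CPM in lung, 10.3 to 24.8 in liver and 15.1 to 20.5 in kidney, where kidney and liver overlapped and lung lay below both. In vehicle mice Fcgr2b ranged from 5.72 to 90.5 CPM in lung and 16 to 22.6 in kidney, so the 2 tissues overlapped.

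Genes with a similar pattern across libraries were looked up for Tyrobp, Fcer1g and Trem2. After the mean of each tissue was removed, Fcer1g and Syk had a Pearson correlation of 0.927 and Fcer1g and Tyrobp of 0.862 over the 30 kidney, liver and lung libraries. The genes most like Tyrobp were C1qb (0.926), C1qa (0.906), Rac2, Ccl5 and Aif1, and those most like Fcer1g were Ccl5 (0.939), Rac2, Pld4, C1qa and Syk (0.927). In the 9 skin libraries Tyrobp was most like Coro1a (0.994), Fcer1g most like Ly6e (0.994) and Lyn (0.993), and Trem2 most like Psmb10 (0.971), Cers4, Rtp4 and Gbp2 (0.963). These correlations describe libraries that share the group differences given above and carry no test.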

How the data were processed

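The authors deposited whole-number counts per gene, made from 3′ MARS-seq libraries sequenced on a NextSeq-500. The submitters' processing notes name bcl2fastq, HISAT 0.1.5, HOMER and mm10. Whether molecule barcodes were collapsed and strand was used is not given in the sources used here. Kidney, liver and lung share 1 table and skin has another, so skin was fitted alone. The counts were tested as deposited with edgeR 4.0.16 in R 4.3.3 (TMM, filterByExpr, quasi-likelihood, the 3 groups of a tissue in 1 fit), at a Benjamini-Hochberg adjusted p below 0.05 over all genes tested. Tests of the difference between tissues used 1 fit of 30 libraries. Ratios used two-sided exact permutation tests (scipy 1.17.1). Counting intervals are 95% and cover counting error only, as do limits of 3 counts. Alternatives were DESeq2 1.42.0, its size factors, no filter beyond 1 count, only the 2 groups compared, the replicate number as a block, and each library left out. In lung alone were all correlations between vehicle and ABT-737 libraries of one number above 0 (0.176, 0.296 and 0.427, from the data and not the labels). Lung libraries of different numbers reached 0.302. The code was tested on simulated data. All 8 genes are named, and of each list at most the 3 called genes with the largest log2 change in a comparison and the most abundant marker. For Tyrobp, Fcer1g and Trem2 up to 5 genes with the highest correlation are named, except 1 gene that is not reported here. Members and lists were chosen with earlier results of these data known.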

Additional observations from a re-analysis of the deposited data

Results flagged for a closer look

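In the 24 groups of 4 young libraries tested, 1 library stood far from the other 3 in 3 groups, and chance alone gives about 1 in 20. Fcgr2b was at 6.24 CPM in young lung library 4, against 2.78 to 3.26 CPM in the others. Its counting interval there, 3.22 to 10.9 CPM, overlaps those of the others, such as 1.08 to 6.41 CPM in library 1. Fcgr4 was at 8.34 CPM in young lung library 2, against 10.3 to 10.4 CPM in the others. The interval in library 2, 4.31 to 14.6 CPM, likewise overlaps those of the others, such as 6.38 to 15.7 CPM in library 1. In the remaining group, Trem2 was at 2.98 CPM in young liver library 2, which is 2 counts, and at 0 in the other 3 young liver libraries. With 3 libraries tied at 0 any count would have stood apart in this way, and the counting interval of 0.361 to 10.8 CPM overlaps the 0 to 7.14 CPM that no count allows in library 1, so nothing is read from it.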

How the results depend on the processing

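The number of the 8 genes called depended on the settings as follows, and the cause was not tested. Where the share of all genes called in a setting is not given, the counts here do not tell a change over all genes apart from one in the 8. For ABT-737 against vehicle it was 5 with no filter beyond 1 count and 1 with only the 2 groups compared in kidney (3 as reported), 3 with the replicate block in lung, and 3 by DESeq2 and 2 with no filter in skin. For vehicle against young the replicate block gave 2 in lung. Its numbers are shared but not a known pairing, and against young mice it rests on young libraries 3 and 4. For ABT-737 against young it was 2 by DESeq2, 4 with no filter and 0 with the replicate block in kidney, 0 with the block in lung, and 2 by DESeq2, 3 with no filter and 1 with only the 2 groups compared in skin. Of all kidney genes, 2.09% were called higher by DESeq2 and 0.198% with the block. The block moved no other count by more than 1.5 times. Leaving out each library gave for ABT-737 against vehicle 1 to 4 in kidney, 0 to 6 in liver, 0 to 1 in lung and 0 to 0 in skin, for vehicle against young 6 to 7, 5 to 6, 4 to 8 and 0 to 8, and for ABT-737 against young 0 to 2, 0 to 0, 0 to 3 and 0 to 1. No gene was called in the tests between tissues with any 1 library left out.

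Some log2 differences that had not been called changed sign. Kidney Fcgr2b against vehicle became 0.06 without ABT-737 library 5 and 0.13 without vehicle library 3, vehicle against young became -0.14 without vehicle library 3 and -0.0092 without young library 4, and ABT-737 against young became -0.017 with no filter, -0.0013 with only the 2 groups compared, and -0.11 to -0.0064 with ABT-737 library 3 or 4, vehicle library 3 or 5 or young library 2 or 4 left out. Trem2 with ABT-737 became 0.0023 in kidney without vehicle library 4 and 0.66 in lung without vehicle library 5. Against young liver, ABT-737 Fcgr1 became -0.93 without ABT-737 library 5 and Tyrobp 0.19 without ABT-737 library 4. Over all left-out libraries the far ends of these differences were -0.17, 0.16 and 0.10 for kidney Fcgr2b in the order given, -0.95 and -0.97 for Trem2 in kidney and lung, 1.12 for liver Fcgr1 and -0.32 for liver Tyrobp. The log2 activating to inhibitory ratio with ABT-737 ranged in lung from -0.79 to 0.25 with 1 library left out. Depth limits liver most, where Fcgr2b, Fcgr4 and Trem2 were too low to be tested.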
